A study of Mus musculus with 36 samples.

Results

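The 6 Iroquois homeobox genes of the mouse, Irx1 to Irx6, were followed across embryonic forelimbs. They were found by gene name in the authors' FPKM table and joined to the count table by gene identifier, which gave 6 of the 50833 genes counted. Forelimbs were taken from embryos at stage E12.5 and split into a distal and a proximal piece, and poly(A) RNA of each piece was sequenced. The 36 libraries form 12 groups of 3. In each tissue there was a wild type (WT) and 5 mutant alleles, each without 1 or more of the sites bound by CTCF at the Hoxd cluster. Their names list the sites lost, from Del(CBS1) for the first alone, through Del(CBS1-2), Del(CBS1-3) and then Del(CBS1-4), to Del(CBS1-5). The Hoxd cluster lies on another chromosome than any Irx gene. Strain B6CBAF1 is given for every library, WT included. Each library was made from the forelimb pair of 1 embryo. The labels name no litter, date or library batch, so an effect of an allele and of the line that carries it cannot be told apart. Sex is not labelled, and by sex-linked genes 2 of 3 WT, 1 of 3 Del(CBS1), 3 of 3 Del(CBS1-2), 1 of 3 Del(CBS1-3), 2 of 3 Del(CBS1-4) and 2 of 3 Del(CBS1-5) embryos were female.

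Iroquois proteins are transcription factors of the TALE class, whose homeodomain carries extra residues between its first and second helices. The genes lie in a pair of clusters that arose by duplication, IrxA (Irx1, Irx2 and Irx4) and IrxB (Irx3, Irx5 and Irx6). Irx3 and Irx5 are reported to act early in the proximal and anterior skeleton of the limb, where posterior Sonic hedgehog signalling limits them. Whether they do so in the forelimb was not tested here. Irx1 and Irx2 are known from the digits and their forming joints.

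On the mm10 build IrxA spans chromosome 13, with Irx1 at 71957921-71963723 on the minus strand, Irx2 at 72628820-72634198 and Irx4 at 73260479-73269608 on the plus strand. Gaps of 665 kb and 626 kb separate neighbouring genes of IrxA. IrxB lies on chromosome 8, with Irx3 at 91798525-91802067 on the minus strand, Irx5 at 92357625-92376286 and Irx6 at 92674288-92680956 on the plus strand, and gaps of 556 kb and 298 kb. The homeobox of each gene is shown because the reads were 50 bases long and this is where the members are most alike. Each run is 189 bases of coding sequence, 5′ to 3′, from the GENCODE vM21 transcripts on mm10. The capitals mark the codons for proline, tyrosine and proline, the residues inserted in TALE homeodomains.
Irx1: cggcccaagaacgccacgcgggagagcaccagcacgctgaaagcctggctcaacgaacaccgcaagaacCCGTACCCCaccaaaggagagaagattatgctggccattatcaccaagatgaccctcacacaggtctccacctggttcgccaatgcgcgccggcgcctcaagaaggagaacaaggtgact
Irx2: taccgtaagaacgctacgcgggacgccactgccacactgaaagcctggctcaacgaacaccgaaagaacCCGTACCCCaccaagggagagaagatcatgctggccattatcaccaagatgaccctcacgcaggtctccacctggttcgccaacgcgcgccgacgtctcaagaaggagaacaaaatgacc
Irx4: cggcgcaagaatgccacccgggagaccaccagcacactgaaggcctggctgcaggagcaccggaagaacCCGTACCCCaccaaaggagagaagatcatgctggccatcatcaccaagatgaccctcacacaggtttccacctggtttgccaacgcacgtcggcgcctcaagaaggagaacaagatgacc
Irx3: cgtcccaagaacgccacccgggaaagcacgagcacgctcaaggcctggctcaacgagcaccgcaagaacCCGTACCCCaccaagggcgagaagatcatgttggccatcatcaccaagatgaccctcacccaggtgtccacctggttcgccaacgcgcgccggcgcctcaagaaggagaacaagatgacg
Irx5: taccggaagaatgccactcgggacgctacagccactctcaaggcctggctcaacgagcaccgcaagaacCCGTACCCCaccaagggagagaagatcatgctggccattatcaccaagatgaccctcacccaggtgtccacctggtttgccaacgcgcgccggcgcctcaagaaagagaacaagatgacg
Irx6: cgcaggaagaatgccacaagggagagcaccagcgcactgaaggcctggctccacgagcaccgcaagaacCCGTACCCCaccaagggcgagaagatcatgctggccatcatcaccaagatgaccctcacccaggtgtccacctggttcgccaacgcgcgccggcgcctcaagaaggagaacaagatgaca
The capital letters were identical in all 6 members. The closest pair was Irx3 and Irx6 of the same cluster, with 92.1% identical bases, and the most distant pair was Irx2 and Irx4 with 85.2%. Pairs across the clusters were also close, with 91.0% for Irx1 and Irx3, 89.9% for Irx2 and Irx5, and 90.5% for Irx4 and Irx6. Over the whole annotated transcripts, Irx3 and Irx6 shared 39 stretches of 50 bases, Irx2 and Irx5 shared 16 and Irx3 and Irx5 shared 1. Each gene has between 2585 and 3368 such stretches, and the other 12 pairs shared none. The homeobox of Irx1 lies in exon 2 of 4 (chr13:71959986-71960174), that of Irx2 in exon 2 of 5 (chr13:72630670-72630858) and that of Irx4 in exon 5 of 6 (chr13:73267529-73267717). In IrxB it lies in exon 2 of 4 of Irx3 (chr8:91800490-91800678), exon 2 of 5 of Irx5 (chr8:92359633-92359821) and exon 4 of 6 of Irx6 (chr8:92677242-92677430). Irx3 overlaps Irx3os on the opposite strand over 1653 bases, and Irx6 overlaps Gm45505 over 785 bases. Irx3os had 2 to 24 counts and Gm45505 0 to 5 counts per library. The use of strand in counting is not given in the sources used here. The split of reads between Irx3 and Irx3os, and between Irx6 and Gm45505, is therefore uncertain.

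Total counts ran from 11062069 to 17727891 per library. In WT, 11 of 13 distal limb markers were higher and 10 of 11 proximal limb markers lower in the distal piece, as the labels have it. Replicates of every group differed by more than sampling noise (chi-square per degree of freedom 2.66 to 21.2). Levels of a gene are given below as CPM, read counts scaled to library size by the TMM method over the 36 libraries. For comparing levels between genes the authors' FPKM values, which are scaled to gene length, were used. Log2 differences are from edgeR's quasi-likelihood test with their standard error (SE), and a call means an adjusted p under 0.05 after Benjamini-Hochberg correction across every gene tested. Where groups do not overlap, this is given as a description. The share of all genes that separated in the same way was not counted. Since RNA was taken from whole tissue pieces, fewer cells of a type and less RNA per cell cannot be told apart.

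Irx1 was by far the most abundant member in distal tissue, and Irx6 the least abundant in both tissues. By FPKM the order in distal WT was Irx1 (28.1 ± 5.36, SD, n = 3), Irx2 (5.63 ± 2.00), Irx5 (3.14 ± 0.543), Irx4 (2.23 ± 0.180), Irx3 (1.43 ± 0.230) and Irx6 (0.323 ± 0.136). The libraries of no 2 neighbours in this distal order overlapped. In proximal WT the first 5 members lay close together, with Irx1 at 3.58 ± 2.35 FPKM (SD, n = 3), Irx5 at 3.40 ± 0.600, Irx2 at 2.78 ± 0.994, Irx4 at 2.65 ± 0.344 and Irx3 at 2.63 ± 0.378. Each of these overlapped its neighbour in the order, and only Irx6 at 0.473 ± 0.0593 FPKM stood apart. Irx1 ranked first in all 6 distal groups. In proximal Del(CBS1-5) it ranked 5 of 6, at 1.93 ± 0.509 FPKM.

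The balance between the clusters differed between the tissues, and Irx1 made up most of the distal sum. IrxA summed to 35.9 ± 7.38 FPKM and IrxB to 4.89 ± 0.858 FPKM in distal WT (SD, n = 3). In proximal WT the sums were 9.02 ± 3.08 FPKM for IrxA and 6.50 ± 0.721 FPKM for IrxB. IrxA thus made up 87.9% ± 2.14 of the summed FPKM of the family in distal WT and 57.2% ± 6.87 in proximal WT. Over the 6 genotypes the mean share of IrxA stayed between 85.8% and 90.3% in distal tissue and between 54.0% and 59.3% in proximal tissue. Irx1 alone held 68.8% of the family's summed FPKM in distal WT and 21.8% in proximal WT.

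**Figure D1:**
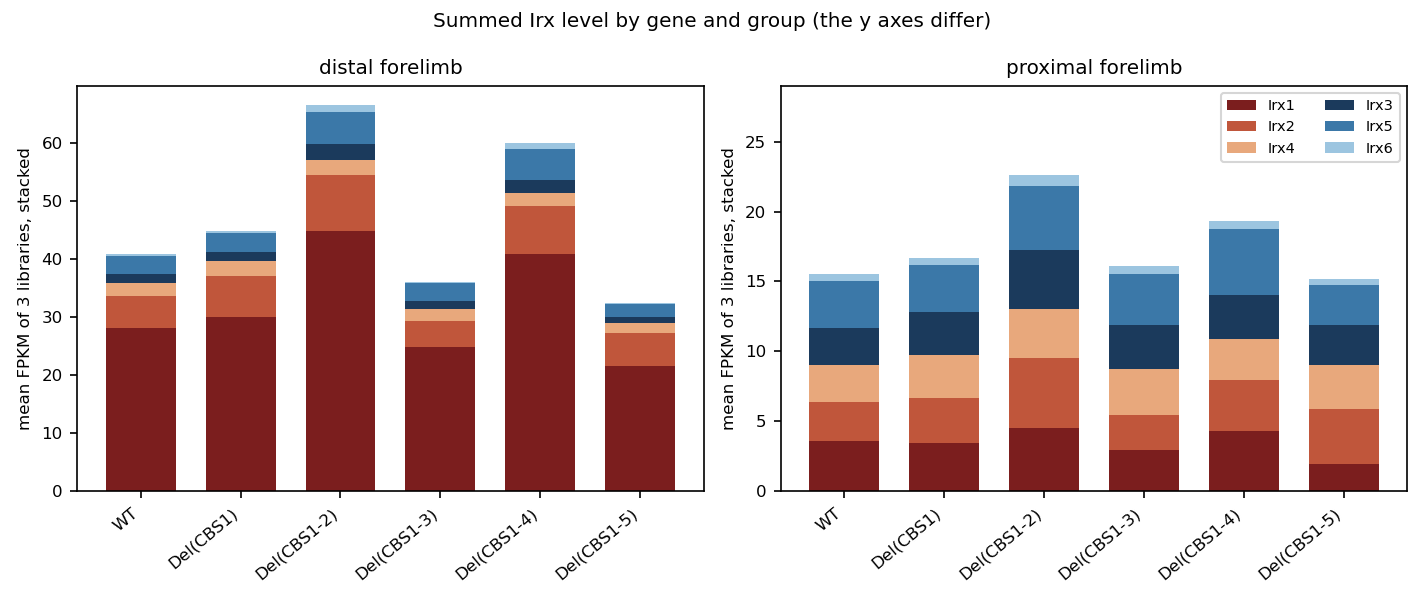
Stacked bars give the mean FPKM of each Irx gene (n = 3 libraries) in the 12 groups, distal in one panel and proximal in the other, with y axes of different range. Irx1 takes the largest part of every distal bar, while the proximal bars are shared among 5 members and Irx6 is a thin band throughout.

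Between the WT tissues, Irx1 and Irx2 of the IrxA cluster were higher distally and Irx3 of the IrxB cluster was lower. Of the 6 members 3 were called, where 30.7% of all genes tested were called. Irx1, a factor of digits and joints, had 53.9, 75.3 and 57.4 CPM in the distal WT libraries and 4.52, 14.4 and 4.15 CPM in the proximal ones. The tissues did not overlap, and the log2 difference was 2.99 ± 0.39 (SE; edgeR, Benjamini-Hochberg adjusted p = 0.000655). The proximal piece of embryo 2 held about 3 times the Irx1 of the other proximal WT libraries. Irx2, the neighbour of Irx1, had 12.2, 21.0 and 15.0 CPM distally and 5.77, 7.29 and 9.73 CPM proximally. Its log2 difference was 1.07 ± 0.25 (SE; edgeR, adjusted p = 0.0110), again with no overlap. On the log2(FPKM + pseudocount) scale with limma this Irx2 call was lost at both pseudocounts, with an adjusted p of up to 0.0682.

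Irx3 had 4.37, 6.24 and 5.79 CPM in distal WT and 8.58, 11.4 and 10.9 CPM in proximal WT. All distal libraries lay below all proximal ones, with a log2 difference of -0.92 ± 0.19 (SE; edgeR, adjusted p = 0.00764). Irx5, its neighbour in IrxB, had 8.74, 12.6 and 12.3 CPM distally and 12.4, 14.2 and 9.999 CPM proximally. These ranges overlapped, and the log2 difference of -0.12 ± 0.19 was not called (adjusted p = 0.680, edgeR). Irx4, best known from the ventricles of the heart, had 6.96, 8.67 and 7.91 CPM distally and 8.34, 9.04 and 11.02 CPM proximally, a log2 difference of -0.27 ± 0.17 that was not called (adjusted p = 0.266, edgeR). Irx6, known from neurons of the retina, had 1.16, 2.43 and 1.12 CPM distally against 2.34, 1.68 and 2.38 CPM proximally. Its log2 difference of -0.44 ± 0.37 was not called either (adjusted p = 0.419, edgeR). These Irx6 values rest on 17 to 35 counts per library, so small differences were not detectable at this depth.

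The direction of the tissue difference was the same in all 5 mutants for Irx1, Irx2, Irx3 and Irx4, and turned from genotype to genotype for Irx5 and Irx6. The background share of genes called between tissues was 36.1% in Del(CBS1), 50.7% in Del(CBS1-2), 34.2% in Del(CBS1-3), 38.6% in Del(CBS1-4) and 40.4% in Del(CBS1-5). The members called numbered 3, 6, 4, 4 and 4 of 6 in the same order, 21 in all. Irx1 was called in each mutant, with log2 differences of 3.01 ± 0.28, 3.33 ± 0.09, 3.22 ± 0.33, 3.20 ± 0.11 and 3.64 ± 0.24 (SE). Irx1 was also the only member whose call held in every genotype under every alternative analysis and with any library left out. Irx3 was lower distally and called in every mutant, with log2 differences from -0.55 ± 0.18 (SE, Del(CBS1-4)) to -1.70 ± 0.34 (SE, Del(CBS1-5)). In each of the 6 genotypes all 3 distal libraries lay above all proximal ones for Irx1 and below them for Irx3.

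Irx2 was called higher distally in Del(CBS1), Del(CBS1-2) and Del(CBS1-4), with log2 differences of 1.11 ± 0.23, 0.93 ± 0.11 and 1.16 ± 0.12 (SE). In Del(CBS1-3) it was 0.69 ± 0.25 higher on the log2 scale (edgeR, adjusted p = 0.0649) and in Del(CBS1-5) 0.48 ± 0.20 (adjusted p = 0.0709). With the embryo as a block both of these passed, at adjusted p = 0.00268 and 0.0175. Irx4 was called lower distally in Del(CBS1-2), Del(CBS1-3) and Del(CBS1-5), at log2 differences of -0.45 ± 0.14, -0.68 ± 0.22 and -0.79 ± 0.23 (SE). In Del(CBS1-3) the calls of Irx3 and Irx4 depended on single libraries, since each was lost on leaving out any of the 6 libraries except the distal one of embryo 2. The Irx3 call in Del(CBS1) was lost without proximal embryo 1, and that in Del(CBS1-4) without distal embryo 1 or 2 or proximal embryo 1 or 3. With limma on log2(FPKM + 0.1) the Irx3 calls in Del(CBS1), Del(CBS1-3) and Del(CBS1-4) were lost (adjusted p = 0.0547, 0.0527 and 0.0691), the last also at log2(FPKM + 1) (0.0703). In 1 edgeR fit of all 36 libraries the Irx3 calls in Del(CBS1-2) and Del(CBS1-4) were lost (adjusted p = 0.0898 and 0.169), as was the Irx4 call in Del(CBS1-2) (0.0827). The Irx4 call in Del(CBS1-3) was lost with limma at both pseudocounts (0.0574 and 0.0563). The Irx4 call was lost without proximal embryo 3 in Del(CBS1-2) and without proximal embryo 2 in Del(CBS1-5).

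Irx6 was called in 4 mutants, in both directions. Its log2 difference, distal over proximal, was -1.23 ± 0.34 in Del(CBS1-3) (SE; edgeR, adjusted p = 0.0199) and -1.99 ± 0.54 in Del(CBS1-5) (adjusted p = 0.0131). It was 0.64 ± 0.18 in Del(CBS1-2) (edgeR, adjusted p = 0.00981) and 0.84 ± 0.26 in Del(CBS1-4) (adjusted p = 0.0256). In each of these 4 genotypes the distal and proximal libraries did not overlap. The Irx6 call was lost without distal or proximal embryo 1, distal embryo 3 or proximal embryo 2 in Del(CBS1-3), without distal embryo 3 or proximal embryo 1 or 2 in Del(CBS1-4), and without distal embryo 2 in Del(CBS1-5). Both positive Irx6 calls were lost with limma on log2(FPKM + 0.1) and log2(FPKM + 1), at adjusted p = 0.0761 and 0.0629 in Del(CBS1-2) and 0.0705 and 0.0617 in Del(CBS1-4). In 1 edgeR fit of all 36 libraries they were also lost (adjusted p = 0.122 and 0.0643). The negative call in Del(CBS1-3) was lost with limma on log2(FPKM + 0.1) (adjusted p = 0.0533), and that in Del(CBS1-5) held in each of these settings. Irx5 was called in Del(CBS1-2) alone, 0.27 ± 0.09 higher distally on the log2 scale (edgeR, adjusted p = 0.0279), and that call was lost with DESeq2, with limma at both pseudocounts, in 1 fit of all 36 libraries (adjusted p = 0.0681 to 0.416), and without distal embryo 1 or 2 or proximal embryo 1 or 3.

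**Figure D2:**
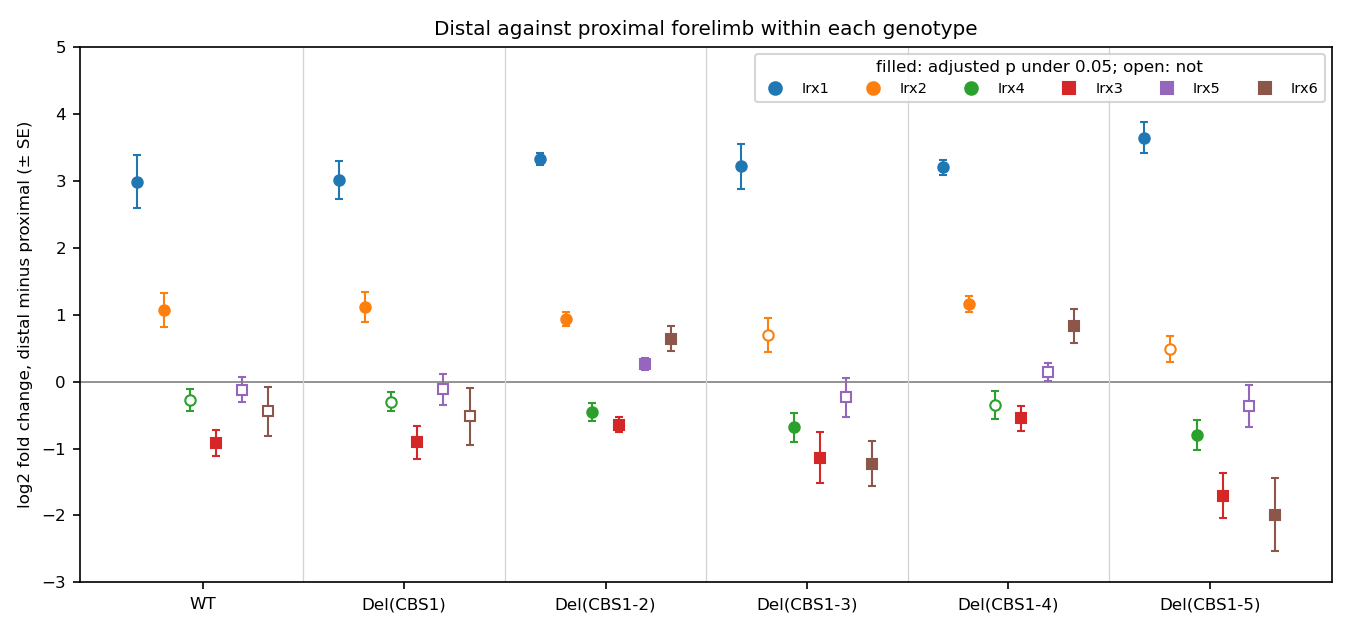
Points give the log2 difference of distal over proximal tissue for each Irx gene in each genotype, bars the SE (n = 3 libraries per tissue), and filled points the calls at an adjusted p under 0.05. Irx1 lies near 3 and Irx3 below 0 in every genotype, whereas Irx6 lies on both sides of 0.

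Within distal tissue the comparisons with WT share the same 3 WT libraries. Irx1 and Irx6 rose in Del(CBS1-2), 2 of 6 members, where 10.5% of all genes tested were called. No member was called in Del(CBS1) (0.0325% of all genes called), Del(CBS1-3) (0.00651%), Del(CBS1-4) (0.0846%) or Del(CBS1-5) (0.0651%), by edgeR with Benjamini-Hochberg adjustment. At an unadjusted p under 0.05 the members numbered 0, 4, 0, 3 and 1 from Del(CBS1) to Del(CBS1-5). The share of all genes at that unadjusted cut was not counted, so these numbers have no background beside them. DESeq2 called 3 over the 5 alleles, the third being Irx6 in Del(CBS1-4) (adjusted p = 0.0443). The median log2 difference of the 6 members from WT was 0.12 in Del(CBS1), 0.76 in Del(CBS1-2), -0.16 in Del(CBS1-3), 0.57 in Del(CBS1-4) and -0.43 in Del(CBS1-5). The median of all genes was within 0.01 of 0 in each. TMM scaling holds it there, so it does not show how unusual the medians of the members are.

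**Figure D3:**
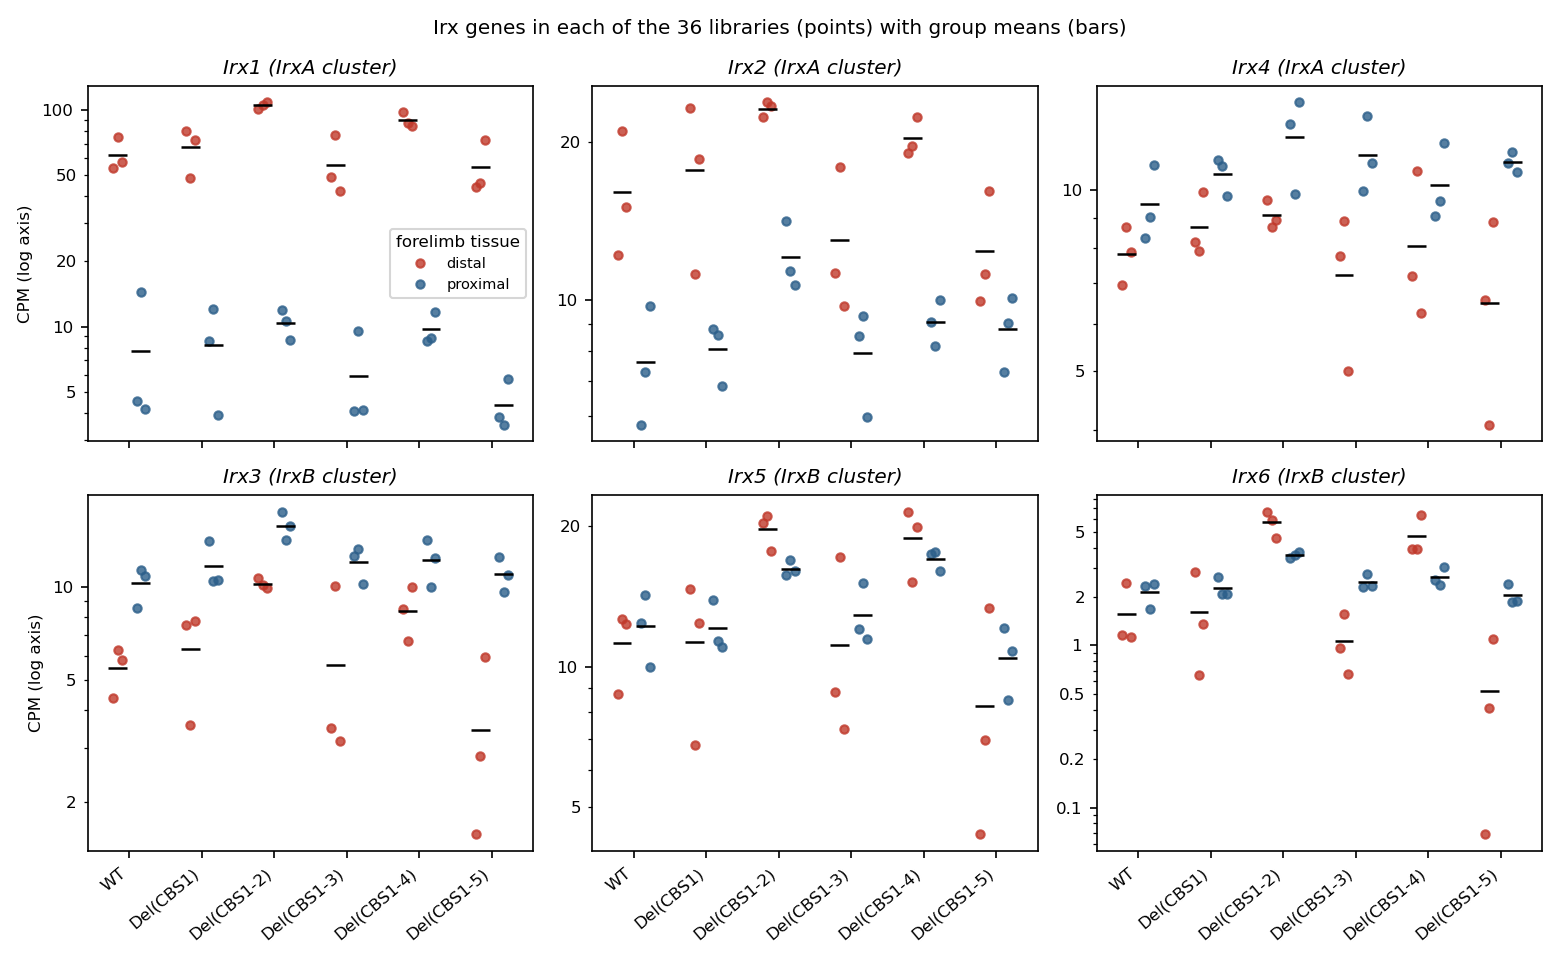
Each point is the CPM of 1 library on a log axis, and each bar the mean of a group (n = 3), with 1 panel per Irx gene. Among distal libraries Irx6 covers the widest range, from 0.0684 to 6.69 CPM, with Del(CBS1-2) and Del(CBS1-4) high and Del(CBS1-5) low.

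Distal Irx1 reached 101, 105 and 109 CPM in Del(CBS1-2), above all 3 WT libraries (53.9 to 75.3 CPM). The log2 difference was 0.73 ± 0.21 (SE; edgeR, adjusted p = 0.0329). Distal Irx6 reached 6.69, 5.94 and 4.58 CPM in Del(CBS1-2) against 1.16, 2.43 and 1.12 CPM in WT. Its log2 difference was 1.85 ± 0.48 (SE; edgeR, adjusted p = 0.0210). Both calls depended on single libraries. The Irx1 call was lost without WT 1, WT 3 or any 1 of the Del(CBS1-2) libraries (log2 difference 0.62 to 0.90 over all alternatives). It was also lost with limma on log2(FPKM + 0.1) and log2(FPKM + 1) (adjusted p = 0.113 and 0.111). The Irx6 call was lost without WT 1, WT 3, Del(CBS1-2) 1 or Del(CBS1-2) 2. The 3 Del(CBS1-2) libraries were above all WT libraries for the other members too, without a call. How many of all genes separated like this was not counted. Irx3 had 10.7, 10.2 and 9.98 CPM (log2 difference 0.89 ± 0.40), Irx5 20.3, 21.0 and 17.6 CPM (0.78 ± 0.33), Irx2 22.2, 23.8 and 23.3 CPM (0.51 ± 0.25) and Irx4 9.64, 8.69 and 8.91 CPM (0.19 ± 0.24).

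Distal Del(CBS1-4) libraries lay above all WT libraries for Irx1, Irx3, Irx5 and Irx6, again without a call or a count over all genes. Irx6 had 3.92, 3.93 and 6.39 CPM there, a log2 difference from WT of 1.59 ± 0.48 (SE; edgeR, adjusted p = 0.125). Distal Del(CBS1-5) had the lowest Irx6 of the series, at 0.0684, 0.414 and 1.10 CPM, which are 1, 6 and 15 counts. All 3 lay below WT, at a log2 difference of -1.59 ± 0.62 (SE; edgeR, adjusted p = 0.291). In the library with 1 count of Irx6 the overlapping Gm45505 also had as many counts, so that value holds little information on Irx6. In distal Del(CBS1) and Del(CBS1-3) every member overlapped WT, with log2 differences between -0.58 (Irx6, Del(CBS1-3)) and 0.20 (Irx3, Del(CBS1)).

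Setting each allele against the preceding one of the series, which differs by 1 further site, gave differences of alternating sign. In distal tissue all 6 members were higher in Del(CBS1-2) than in Del(CBS1), lower in Del(CBS1-3) than in Del(CBS1-2), higher in Del(CBS1-4) than in Del(CBS1-3) and lower in Del(CBS1-5) than in Del(CBS1-4). Neighbouring steps share libraries, which ties their signs to each other. The share of all genes called was 2.47%, 6.53%, 10.7% and 16.7% in these steps, and 1, 2, 2 and 4 of the 6 members were called. Irx6 was called in every step, with log2 differences of 1.83 ± 0.48 (SE; edgeR, adjusted p = 0.0499), -2.43 ± 0.51 (0.0127), 2.18 ± 0.51 (0.0168) and -3.19 ± 0.56 (0.00296). Irx1 was called in the last 3 steps, at log2 differences of -0.90 ± 0.21, 0.70 ± 0.21 and -0.74 ± 0.21 (SE). Calls of the first 3 steps depended on single libraries. For the step from Del(CBS1-3) to Del(CBS1-4), the Irx6 call was lost without Del(CBS1-3) 1 or 3 or Del(CBS1-4) 3. For the step before it, it was lost without Del(CBS1-3) 1 or 3. The first Irx6 call and the Irx1 call from Del(CBS1-3) to Del(CBS1-4) each held with 9 of the 18 distal libraries left out in turn. That Irx1 call was lost with DESeq2 (adjusted p = 0.0567) and with limma at both pseudocounts (0.0731 and 0.0756), and the first Irx6 call with limma on log2(FPKM + 0.1) (0.0934). The Irx1 call from Del(CBS1-2) to Del(CBS1-3) was lost without Del(CBS1-2) 2 or 3 or Del(CBS1-3) 1 or 3 and with limma (0.0566 and 0.0577), and that from Del(CBS1-4) to Del(CBS1-5) without Del(CBS1-4) 1 or 3 or Del(CBS1-5) 1 or 2.

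From Del(CBS1-4) to Del(CBS1-5) Irx3, Irx5 and Irx6 of IrxB were called lower, and so was Irx1 of IrxA. Irx2 of IrxA was lower without overlap but not called (log2 difference -0.73 ± 0.25, SE; edgeR, adjusted p = 0.0578). Irx5 had 21.4, 15.2 and 19.9 CPM in Del(CBS1-4) and 4.38, 6.97 and 13.3 CPM in Del(CBS1-5), a log2 difference of -1.21 ± 0.34 (SE; edgeR, adjusted p = 0.0238). Irx3 had 8.48, 6.67 and 9.99 CPM against 1.57, 2.83 and 5.93 CPM, a log2 difference of -1.30 ± 0.43 (SE; edgeR, adjusted p = 0.0447). Neither gene overlapped between these alleles. The Irx5 call was lost without Del(CBS1-4) 1 or 3 or Del(CBS1-5) 1 or 2. That of Irx3 was lost on leaving out any of 9 of the 18 distal libraries, with DESeq2 (adjusted p = 0.0523) and with limma (0.0605 and 0.0659). The fall of Irx6 in this step was called with any of the 18 distal libraries left out, but not with the skeletal muscle score as a covariate (adjusted p = 0.115). In a test for any difference among the 6 distal genotypes, 3 members were called, Irx1 (edgeR, adjusted p = 0.0137), Irx5 (0.0459) and Irx6 (0.00309), where 19.7% of all genes were called. Irx1 and Irx6 kept this call with each of the 18 libraries left out, and Irx5 in 8 of 18 cases. The Irx5 call was lost with limma at both pseudocounts (adjusted p = 0.0864 and 0.0790).

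**Figure D4:**
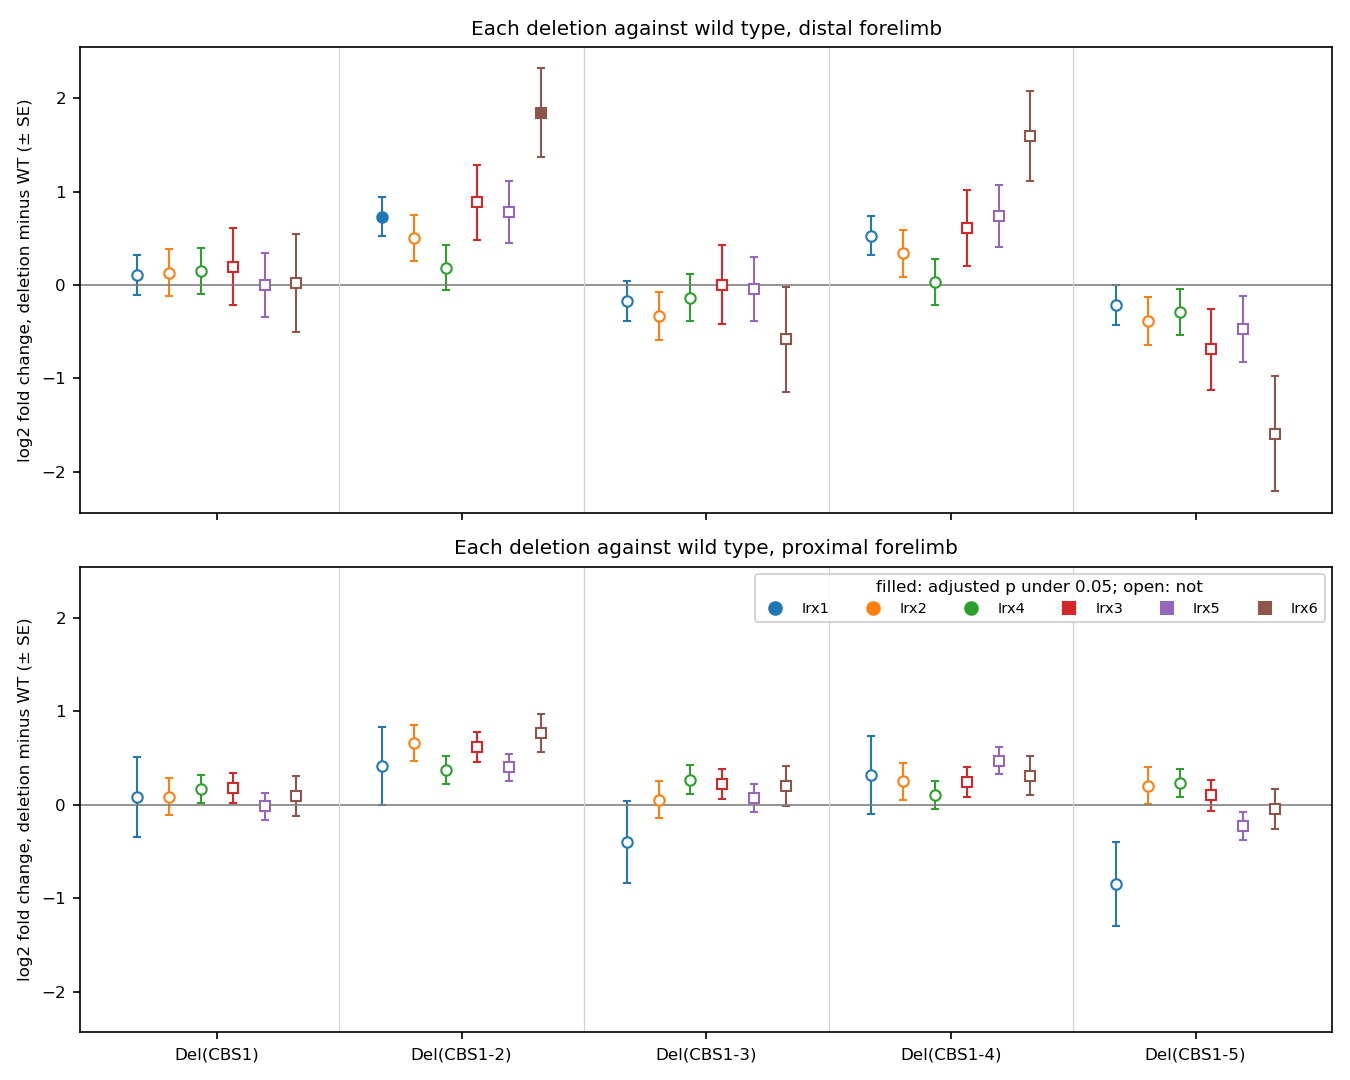
Points give the log2 difference of each mutant from WT for the 6 Irx genes, with SE bars (n = 3), in distal and proximal panels, and filled points mark calls at an adjusted p under 0.05. Distally Irx6 moves from 1.85 in Del(CBS1-2) to -1.59 in Del(CBS1-5), and the only filled points are Irx1 and Irx6 in Del(CBS1-2).

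Markers of other cell types also differed between some of these distal groups and overlapped between others. The summed level of 15 skeletal muscle genes was 42.4 to 42.9 CPM in distal WT, 86.3 to 163 CPM in Del(CBS1-2), 46.4 to 141 CPM in Del(CBS1-4) and 23.7 to 38.5 CPM in Del(CBS1-5), where Myf6 was at 0, against 2190 to 2600 CPM in proximal WT. Distal Del(CBS1) had 30 to 112 CPM, with Myf6 also at 0, and distal Del(CBS1-3) 22.1 to 81.9 CPM. With the muscle score as a covariate, none of the 6 members was called in distal tissue against WT and none in the test for any genotype. All 9 distal calls of Irx1, Irx3, Irx5 and Irx6 between successive alleles were lost too (adjusted p 0.0973 to 0.455). With this covariate Irx1 and Irx6 differed from WT in Del(CBS1-2) by 0.62 and 1.39 on the log2 scale, against 0.73 and 1.85 without it. From Del(CBS1-4) to Del(CBS1-5) Irx6 differed by -2.64 against -3.19, and Irx3 by -0.81 against -1.30. The muscle score itself differed between these genotypes, so muscle content and the allele cannot be told apart by this fit. Of 8 erythroid genes listed 6 were measured, and they summed to 2370 to 3460 CPM in distal WT, 2030 to 2200 CPM in Del(CBS1-2), 1770 to 2190 CPM in Del(CBS1-4) and 3010 to 5840 CPM in Del(CBS1-5). Their sum was 1950 to 3050 CPM in Del(CBS1) and 2320 to 3330 CPM in Del(CBS1-3). Joint interzone genes, which mark the forming joints, had a mean log2 CPM of 4.96 to 5.17 in distal WT, 5.49 to 5.76 in Del(CBS1-2), 5.33 to 5.79 in Del(CBS1-4) and 4.52 to 4.95 in Del(CBS1-5). Their mean was 4.89 to 5.14 in Del(CBS1) and 4.56 to 5.51 in Del(CBS1-3). The mean log2 CPM of chondrogenesis genes was 4.86 to 5.48 in WT, 5.79 to 6.10 in Del(CBS1-2), 5.70 to 6.23 in Del(CBS1-4) and 4.58 to 5.21 in Del(CBS1-5). For Del(CBS1) it was 5.02 to 5.32 and for Del(CBS1-3) 4.72 to 5.59. Nerve genes had a mean log2 CPM of 0.376 to 0.777 in WT, 0.785 to 0.971 in Del(CBS1-2), 0.283 to 1.31 in Del(CBS1-3), 0.488 to 0.885 in Del(CBS1-4) and 0.125 to 0.689 in Del(CBS1-5), so that the last 3 overlapped WT. The part of erythroid, joint, cartilage and nerve content in the Irx differences was not tested.

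In proximal tissue no member was called against WT in any allele by edgeR with Benjamini-Hochberg adjustment, and 0, 5, 0, 1 and 0 members had an unadjusted p under 0.05 from Del(CBS1) to Del(CBS1-5). The share of all genes called after adjustment was 0.0443%, 0.721%, 0.0696%, 0% and 0.0696%. That at the unadjusted cut was not counted. DESeq2 called 2 members over the 5 alleles, Irx2 (adjusted p = 0.0365) and Irx3 (adjusted p = 0.0187), both in Del(CBS1-2). Irx3 had 17.6, 14.2 and 15.8 CPM in proximal Del(CBS1-2) and 8.58 to 11.4 CPM in WT, with a log2 difference of 0.62 ± 0.16 (SE; edgeR, adjusted p = 0.0710). Irx6 differed by 0.77 ± 0.21 (adjusted p = 0.0767) and Irx2 by 0.66 ± 0.19 (adjusted p = 0.0878) on the log2 scale in that allele. The groups did not overlap for Irx2, Irx3, Irx5 and Irx6, and the share of all genes without overlap was not counted. The median log2 difference of the members was 0.52 in proximal Del(CBS1-2). In the other 4 alleles it was 0.09, 0.14, 0.28 and 0.03 in the order of their names. That of all genes was within 0.01 of 0, where TMM scaling holds it.

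Between successive alleles in proximal tissue, Irx5 was the 1 member called by edgeR. It had 17.4, 17.6 and 15.97 CPM in Del(CBS1-4) and 12.1, 8.47 and 10.8 CPM in Del(CBS1-5), which did not overlap. It fell in that step by 0.69 on the log2 scale (SE 0.15; edgeR, adjusted p = 0.0105), where 10.3% of all genes were called, and the call was lost without proximal Del(CBS1-5) 2 (adjusted p = 0.064). The preceding proximal steps had no member called, with 1.49%, 7.27% and 13.8% of all genes called after adjustment. At an unadjusted p under 0.05 they had 4, 4 and 1 members, and the share of all genes there was not counted. Of these steps DESeq2 called Irx2 from Del(CBS1-2) to Del(CBS1-3) (adjusted p = 0.0343). In the test for any difference among proximal genotypes Irx5 was the 1 member called (edgeR, adjusted p = 0.0184), where 15.1% of all genes were. Irx6, Irx3 and Irx2 had adjusted p = 0.0519, 0.0786 and 0.1001 in that test, and DESeq2 also called Irx3 (0.0306) and Irx2 (0.0437). Whether Irx5 varied more than the other members was not tested. Proximal Irx1 was the lowest in Del(CBS1-5), at 3.82, 3.51 and 5.75 CPM against 4.52, 14.4 and 4.15 CPM in WT, a log2 difference of -0.85 ± 0.45 that was not called (adjusted p = 0.785, edgeR).

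Whether the alleles acted differently in the tissues was tested over all 36 libraries. Irx6 was the 1 member called for any such difference (edgeR, adjusted p = 0.0371), where 0.755% of all genes were called. Its distal group means spanned 10.9-fold between the lowest and highest genotype, while its proximal libraries ran from 1.68 to 3.76 CPM. No single allele was called for Irx6, with an interaction of 1.10 ± 0.53 in Del(CBS1-2) (adjusted p = 0.435, edgeR), 1.28 ± 0.54 in Del(CBS1-4) (0.706) and -1.53 ± 0.64 in Del(CBS1-5) (0.796) on the log2 scale. The call for any difference held with 17 of the 36 libraries left out in turn and was lost with the other 19. With the embryo as a block it was called at an adjusted p of 0.0259. For Irx1 to Irx5 the difference between the tissues was not called (adjusted p 0.712 to 0.979, edgeR).

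The spread of distal replicates differed between groups. In distal Del(CBS1-2) the coefficient of variation was 3.42% to 9.09% for Irx1 to Irx5, while in Del(CBS1), Del(CBS1-3) and Del(CBS1-5) most members differed widely between embryos. In distal Del(CBS1-3) embryo 2 had 76.4 CPM of Irx1, 10.1 CPM of Irx3 and 17.1 CPM of Irx5, while embryos 1 and 3 had 49.3 and 42.1, 3.48 and 3.17, and 8.81 and 7.37 CPM. In distal Del(CBS1-5) embryo 1 was lowest and embryo 3 highest for Irx1, Irx2, Irx3, Irx5 and Irx6. In distal Del(CBS1) embryo 2 was the lowest for all 6 members. The median coefficient of variation within distal groups was 45.2% for Irx6 and 20.2% to 28.7% for the other members. Within proximal groups it was 38.8% for Irx1 and 13.9% to 15.6% for the others.

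After each group's mean was subtracted from log2 CPM, the deviations of distal libraries (n = 18, from 6 groups of 3) were correlated as a description. Irx3 and Irx5 had r = 0.971, and 0.955 without the 2 libraries farthest from the median. Irx1 and Irx2 had r = 0.933, and 0.911 without 2 libraries. Members of different clusters also moved together, with r = 0.907 for Irx1 and Irx5 (0.838 without 2) and 0.893 for Irx1 and Irx3 (0.801 without 2). The median r was 0.858 within clusters and 0.815 between them. Irx4 was the exception, with r between 0.258 and 0.604 with the other members. Of 16286 other genes, between 0.111% (for Irx4) and 1.3% (for Irx1) had an r above 0.8 with a given member distally. Of the 5 other members 3 were above 0.8 with Irx1, 4 with Irx2, 4 with Irx3, 4 with Irx5 and 3 with Irx6, and none with Irx4. In proximal tissue no pair was above 0.8, and the median r was 0.347 within clusters and 0.327 between them. The values of a library share its depth and its dissection.

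Marker scores also varied with the members within distal groups. The r with the erythroid score ran from -0.841 to -0.369 over the 6 members. It ran from 0.414 to 0.827 with the joint interzone score, from 0.353 to 0.809 with the Hedgehog score and from 0.495 to 0.781 with the nerve score. With the skeletal muscle score r was 0.086 to 0.312, and with the score of distal limb markers -0.487 to -0.214. Without the 2 libraries farthest from the median, the ranges were -0.789 to -0.153 for the erythroid, 0.105 to 0.748 for the joint interzone, 0.422 to 0.779 for the Hedgehog and 0.279 to 0.651 for the nerve score. The ranges of the muscle score (-0.094 to 0.119) and the distal limb score (-0.29 to 0.131) then spanned 0. The part of these contents in the spread of the Irx genes was not tested.

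**Figure D5:**
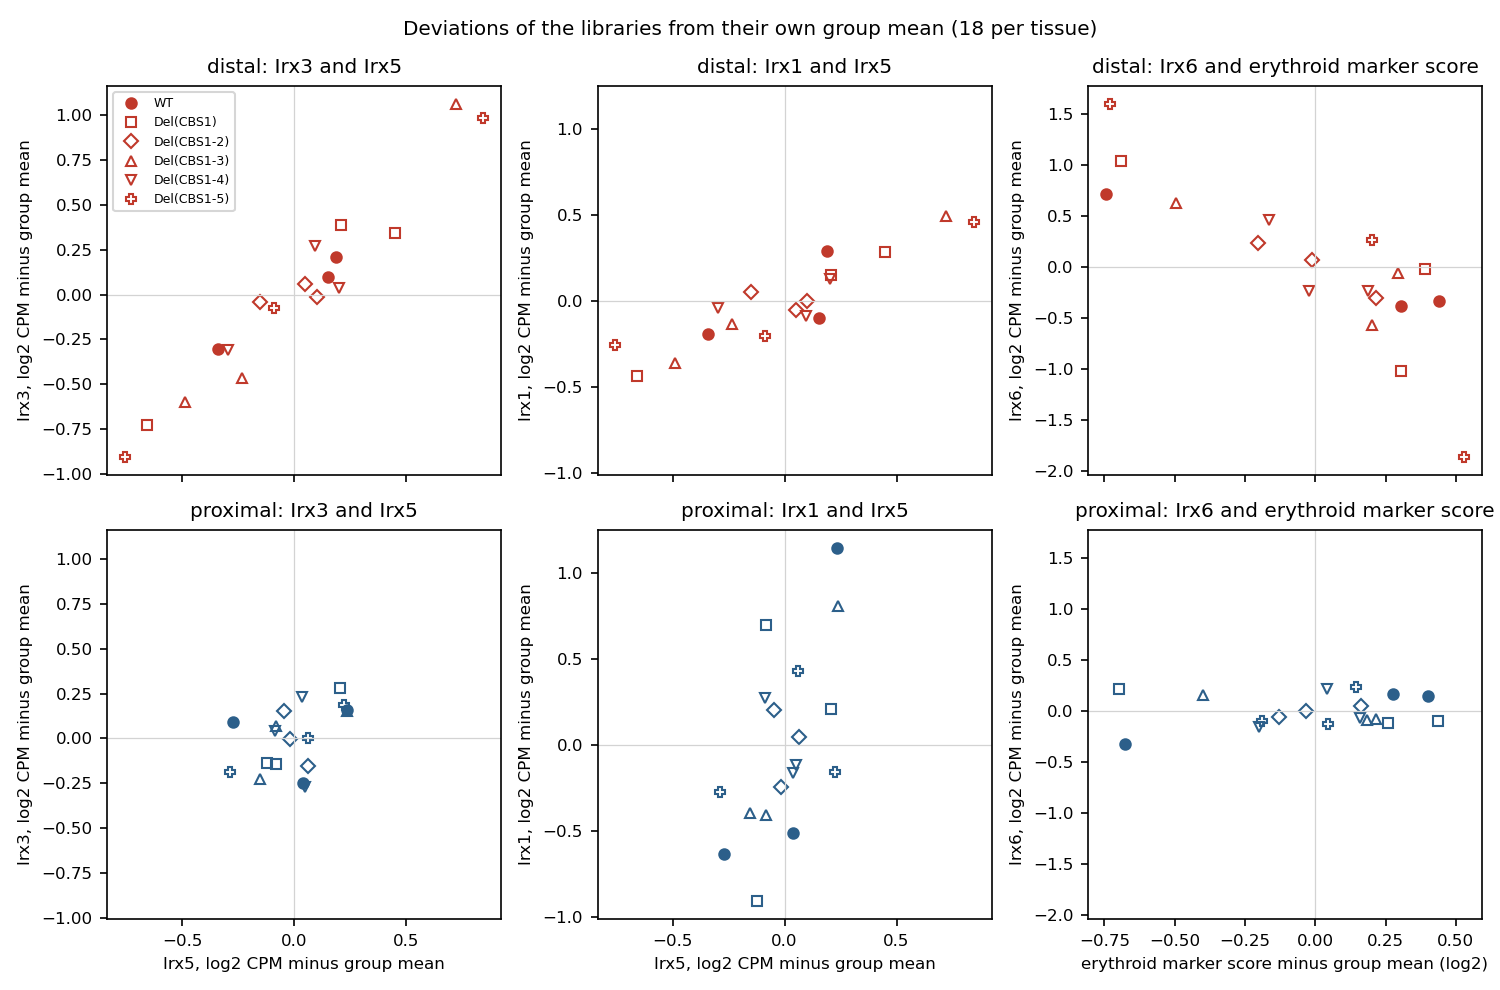
Each point is 1 library's deviation from its group mean (log2 CPM), distal or proximal, plotted for Irx3 against Irx5, Irx1 against Irx5, and Irx6 against the erythroid score. Distal points of Irx3 and Irx5 follow a line (r = 0.971), proximal points form a smaller cloud, and distal Irx6 is low where the erythroid score is high.

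The other TALE homeobox genes encode cofactors such as Meis and Pbx proteins. Of 12 tested, 5 fell and none rose in distal against proximal WT, with a median log2 difference of -0.65. Of all genes 30.7% were called there. Meis1 (-1.39 ± 0.18), Meis2 (-0.95 ± 0.11) and Pbx3 (-0.87 ± 0.09) were lower distally, the direction of Irx3 and the opposite of Irx1 and Irx2. In distal Del(CBS1-2) Pbx3 was the 1 TALE gene called against WT, at 0.37 ± 0.11 on the log2 scale, and the list median was 0.01. Of all genes 10.5% were called in that comparison. Of 9 genes reported as partners, targets or neighbours of Irx factors, 5 fell and 1 rose in distal against proximal WT, also beside 30.7% of all genes. The chemokine Cxcl12 had a log2 difference of -1.90 ± 0.12, Trps1 of -0.68 ± 0.05 and Gata3 of -1.98 ± 0.30, the last 2 encoding GATA-type zinc finger proteins.

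Hedgehog and joint genes moved in some of the distal comparisons in which Irx members were called, within the same libraries. Distal counts are given here for Del(CBS1-2) against WT and Del(CBS1-5) against Del(CBS1-4) only. The share of all genes called in these comparisons was 10.5% for Del(CBS1-2) against WT and 16.7% for Del(CBS1-5) against Del(CBS1-4). Of 13 Hedgehog pathway genes tested 7 rose and none fell in distal Del(CBS1-2) against WT, and 10 fell and none rose from Del(CBS1-4) to Del(CBS1-5). In that step the ligand Ihh differed by -2.31 ± 0.42 and the Hedgehog-binding protein Hhip by -2.10 ± 0.42 on the log2 scale. Of 12 joint interzone genes 3 rose in distal Del(CBS1-2), Gdf5 (0.85 ± 0.25), Gdf6 (0.64 ± 0.17) and Sfrp2 (0.38 ± 0.10). From Del(CBS1-4) to Del(CBS1-5) 10 of the 12 fell, among them Osr1 (-1.71 ± 0.39) and Wnt4 (-0.91 ± 0.19). Of 19 BMP genes 5 rose and 2 fell in distal Del(CBS1-2), with the target Id3 at 0.37 ± 0.06 and the ligand Bmp7 at 0.39 ± 0.08. In proximal tissue none of the genes of these lists was called against WT.

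The genes around the clusters were compared to see how far a tissue difference extends along the chromosome. Within 1 Mb of IrxA 14 other genes were tested, and 5 rose and 2 fell in distal against proximal WT, where 30.7% of all genes were called. Gm20554 (chr13:72626213-72628564), which ends just before Irx2 begins, was higher distally like Irx2, with 2.99 against 1.09 CPM on average and a log2 difference of 1.43 ± 0.40 (SE; edgeR, adjusted p = 0.0256). Nkd2, an inhibitor of Wnt signalling, was higher by 0.66 ± 0.10. Within 1 Mb of IrxB 15 other genes were tested and 2 fell, Irx3os (log2 difference -1.55 ± 0.43), which overlaps Irx3, and the matrix protease Mmp2 (-0.19 ± 0.06). In distal Del(CBS1-2) against WT Nkd2 (0.15 ± 0.04) rose, 1 of 14 other genes tested near IrxA. Mmp2 (0.36 ± 0.06) rose too, 1 of 16 near IrxB, where 10.5% of all genes were called. From distal Del(CBS1-4) to Del(CBS1-5) Mmp2 fell by 0.40 on the log2 scale, 1 of 16 near IrxB. In that step 1 of 14 genes near IrxA rose, where 16.7% of all genes were called.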

How the data were processed

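The authors deposited the reads of 36 libraries as counts by Ensembl gene and, in a second table, FPKM from Cufflinks, which scales fragments by the length of a gene and the size of a library, per the file headers. Tools named in the submitters' processing notes are STAR 2.7.0, cutadapt 1.16, bedtools 2.27.1 and Cufflinks 2.2.1, with the build mm10. How counting was set is not given in the sources used here. All columns matched a sample title.

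Counts were tested with edgeR 4.0.16 in R 4.3.3 (quasi-likelihood F test, TMM, filterByExpr) and p-values adjusted by Benjamini-Hochberg over all genes tested. Tissues were compared within a genotype (6 libraries), genotypes within a tissue (18 libraries), and the interaction over 36 libraries, where 16292 genes were tested. The spread behind each p-value is that between embryos. The main tissue and interaction tests treated the distal and proximal piece of an embryo as independent. The embryo entered as a block only in an alternative. CPM use TMM over 36 libraries, and log2 CPM a prior count of 0.5. A marker score is the mean log2 CPM of a list's measured genes. The test was first checked on simulated data. The alternatives were DESeq2 1.42.0, DESeq2's size factors in edgeR, no count filter, limma 3.58.1 on log2(FPKM + 0.1) and log2(FPKM + 1), a replicate block, 1 fit of all libraries, fits of only the groups compared, a muscle covariate and leaving out each library. The replicate block was the embryo between tissues and the bare replicate number within a tissue. The comparisons of successive alleles were added after seeing the data.

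Same-numbered distal and proximal libraries deviated from their group means together in 18 of 18 cases (r above 0.1 each) and agreed in sex, so numbers mark embryos across tissues. Across genotypes 4 of 30 pairs with WT had r above 0.1. All 4 were numbers 1 and 3 of Del(CBS1-3), whose number 2 was at 0.0621 and 0.0841, so in no allele and tissue did every pair pass and the numbers were not taken to pair genotypes.

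The members and gene lists were chosen with earlier results of these data known. Named are all 6 members, up to 4 called genes per list and comparison by smallest p, and called genes within 1 Mb of a cluster. For each member the 3 genes most like it are named too, with Irx genes and unnamed gene models left out. Some genes these rules would name are not reported here.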

Additional observations from a re-analysis of the deposited data

Results flagged for a closer look

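The effect of the alleles on Irx6 differed between distal and proximal forelimb, by a test of the difference itself over all 5 alleles (edgeR interaction, Benjamini-Hochberg adjusted p = 0.0371). Distal Irx6 stood above WT in 3 of 3 libraries of Del(CBS1-2) and of Del(CBS1-4) and below it in 3 of 3 of Del(CBS1-5), with log2 differences of 1.85, 1.59 and -1.59. Proximally the log2 differences were 0.77, 0.31 and -0.04 in these alleles. The call was lost on leaving out 19 of the 36 libraries one at a time and with limma on log2(FPKM + 0.1), where the adjusted p was 0.121. The cause was not tested.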

How the results depend on the processing

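Of the 6 members, 3 were called between WT tissues, 21 times over the mutants' tissues, 2 times over distal and 0 times over proximal mutants against WT, 3 and 1 times among distal and proximal genotypes, 1 time for the interaction and 10 times over the allele steps. No direction of a call reversed under any alternative run. DESeq2 gave 2 calls over proximal mutants and 3 among proximal genotypes. Without the count filter there were 10 calls over distal and 4 over proximal mutants, 5 among distal and 4 among proximal genotypes, 3 interactions and 28 steps. In that fit the prior degrees of freedom were infinite, against 5.92 in distal and 6.37 in proximal tissue with the filter, so each gene was given the spread of the trend. Limma on log2(FPKM + 0.1) gave 13 calls over mutant tissues, 1 over distal mutants and 0 interactions, and on log2(FPKM + 1) 1 call over distal mutants. Fits of only the groups compared gave 4 calls over distal and 1 over proximal mutants. With the muscle covariate 0 calls remained over distal mutants, 0 among distal genotypes and 1 over the steps. The cause of these differences was otherwise not tested. By CPM in place of FPKM the IrxA share was 82.5% in distal and 49.7% in proximal WT. With the embryo as a block, 23 calls over mutant tissues were made. Within a tissue the block was the replicate number, which joins embryos of different genotypes that were not taken as pairs. It removes no known pairing and gave 1 call over distal mutants and 7 steps. The calls lost under the block were Irx1 in distal Del(CBS1-2) against WT (adjusted p = 0.0522), Irx5 among distal genotypes (0.072), and in distal steps Irx6 to Del(CBS1-2) (0.084), Irx1 to Del(CBS1-4) (0.0637) and Irx3 to Del(CBS1-5) (0.0525).

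Leaving out 1 library at a time gave 18 to 22 calls over mutant tissues, 0 to 3 over distal and 0 to 1 over proximal mutants, 2 to 5 among distal and 1 to 3 among proximal genotypes, 0 to 1 interactions and 5 to 17 steps. WT tissue calls stayed at 3. Leaving out a library, or Irx1 with Irx5, moved the IrxA share between 81.6% and 89.1% in distal WT and between 54.5% and 63.2% in proximal WT. Depth limits Irx6 most, with 1 to 104 counts in distal libraries.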

Other observations

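The genes whose means over the 12 groups were most like each member are given as a description, by Pearson's r of mean log2 CPM over 12 groups. Irx genes and unnamed gene models were left out of this ranking, so another member may be closer than the genes given. Both tissues enter, so r is dominated by the tissue difference for members with a large one. Irx1 was closest to Eva1a (r = 0.997), Dlc1 (0.993) and Itga11 (0.990), and Irx2 to Lypd3 (0.983), Slit2 (0.970) and Mfsd6 (0.959). For Irx3 the closest were Barx2 (0.980), Chil1 (0.975) and Col14a1 (0.973), and for Irx4 Csmd1 (0.975), Tmem150a (0.969) and Ptger3 (0.952). Irx5 was closest to Stk32b (0.969), Tiam2 (0.965) and Sbspon (0.961). Irx6 was also closest to Stk32b (0.924), followed by Utrn (0.922) and Nell2 (0.921). Irx5 and Irx6, which are neighbours in the IrxB cluster, thus shared the most similar of the genes ranked. No other gene ranked stood among the first 3 of more than 1 member.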
